A study of Mus musculus with 10 samples.

Results

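Transcripts of hypothalamic neuropeptides were examined in the whole brain of newborn mice that carry 1 edited copy of *Arid1b*. The genes were chosen by name, as peptides of hypothalamic neurons: *Avp*, *Oxt*, *Trh*, *Crh*, *Pmch*, *Hcrt*, *Agrp*, *Gal*, *Gnrh1* and *Cartpt*. Of these 10, 9 were measured among the 18444 genes of the table, and *Agrp*, which encodes a peptide that drives feeding, was not analysed here. A total of 8 passed the minimum mean of 10 normalised counts and were tested, and *Gnrh1*, with a mean below it, is given by its values and a permutation test alone.

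The samples were whole brains of male C57BL/6N pups at postnatal day 3 (P3), from which poly-A mRNA was read in 1 library per mouse. Of the 10 pups, 5 carried 1 mutant allele of *Arid1b* (heterozygous, HT) and 5 were wild type (WT). *Arid1b* encodes a subunit of the BAF chromatin remodelling complex. In the HT mice, exon 5 of 1 *Arid1b* allele was deleted by CRISPR/Cas9 in the germ line, so that every cell carries the edit, and all HT mice descend from a single edited line. HT and WT pups came from crosses of HT males with WT females, so neither group was reared by a mutant mother, and which pups were littermates was not given in the sources used here.

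Neuropeptides are made as larger precursors, cut and modified inside secretory vesicles and released to act on receptors of other cells. The neurons that make them are few and sit in small groups of the hypothalamus. Magnocellular neurons send vasopressin and oxytocin into the blood through the posterior pituitary, parvocellular neurons send releasing hormones to the anterior pituitary, and neurons of the lateral and arcuate hypothalamus act within the brain on feeding, sleep and arousal. Several of these genes are also used outside the hypothalamus, *Crh*, *Cartpt* and *Gal* among them. In whole-brain RNA, fewer neurons of a type and less transcript per neuron cannot be told apart.

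The 8 tested neuropeptide genes all had a higher mean in HT than in WT, with log2 differences from 0.12 for *Avp* to 0.44 for *Hcrt* and a median of 0.35. The median over all 17020 genes tested was -0.0074, and 46.4% of genes were higher in HT. None of the 8 passed the adjusted threshold of 0.05 (limma with Benjamini-Hochberg adjustment, adjusted p of 1.00 for each), as was true of every gene in the table (0%, with 580 genes at an unadjusted p under 0.05). At an unadjusted p under 0.05, *Trh* and *Gal* were higher in HT, that is 2 of 8, where 1.47% of all genes were higher at that level. HT and WT libraries overlapped for all 9 measured genes, and the groups did not overlap for 0.629% of all genes. The 8 genes are not independent of each other, since they were read in the same 10 brains.

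The targeted gene was checked first. *Arid1b* stood at 2101 ± 343 normalised counts in HT (SD, n = 5, from 1505 to 2372) and 3335 ± 203 in WT (SD, n = 5, from 3108 to 3597), which puts HT at a ratio of 0.630 to WT, with no overlap (exact permutation p = 0.00794, the smallest that 5 against 5 allows). By limma, even *Arid1b* did not pass adjustment over all genes (adjusted p = 0.390), and without HT 4 it did (adjusted p = 0.000252). A normalised count is the number of reads estimated for a gene divided by a factor for the depth of the library. Totals were 27.2 M to 29.03 M per library (M, 1000000), and 1 normalised count was close to 1 read (1 read was worth 0.911 to 1.13). HT 4 stood apart from the other libraries: its median absolute log2 deviation over genes was 0.209 against 0.0772 to 0.108 in the others, its deviations fell with transcript length (Spearman rho of -0.474 across genes, which are not independent replicates), and it had the lowest *Arid1b* value. HT 4 was also the highest library for 5 of the 9 neuropeptides. Neuropeptide differences and list medians that moved by over 1.5 times without HT 4 are therefore given both ways. Single genes of the other lists are given with all libraries unless stated. The 12 measured transcription factors that define the hypothalamus were above 0 in every library, among them *Nkx2-1* at 173 to 224 normalised counts in HT and 171 to 213 in WT.

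**Figure D1:**
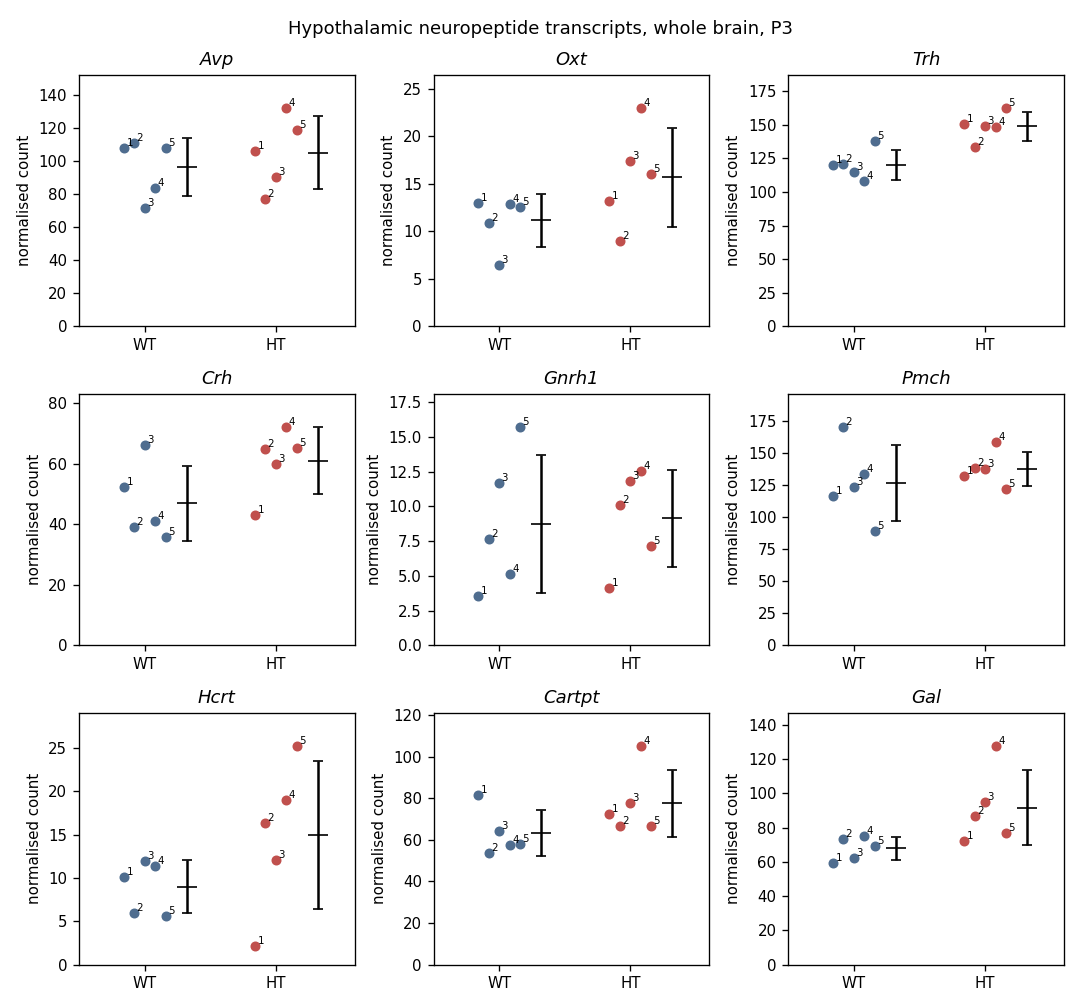
Normalised count of each measured neuropeptide in every library (points, numbered by replicate; blue WT, red HT), with the group mean and SD beside them (n = 5 each). For *Oxt*, *Trh*, *Hcrt* and *Gal*, 4 of the 5 HT libraries lie above every WT library, while for *Pmch* and *Gnrh1* no HT library does.

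Levels were compared between genes per kilobase of the longest transcript. On this scale, as means over the 10 libraries, *Pmch* at 177 and *Avp* at 175 normalised counts per kb were the most abundant, followed by *Gal* at 101, *Trh* at 97.3, *Cartpt* at 56.9, *Crh* at 40.9, *Oxt* at 25.0, *Hcrt* at 20.4 and *Gnrh1* at 18.4. The ranges over the 10 libraries overlapped for every pair of neighbours in this order. Within libraries, *Avp* exceeded *Gal*, *Trh* exceeded *Cartpt*, *Cartpt* exceeded *Crh* and *Crh* exceeded *Oxt* in 10 of 10 libraries, whereas *Pmch* exceeded *Avp*, *Gal* exceeded *Trh* and *Hcrt* exceeded *Gnrh1* in only 5 of 10. *Oxt* exceeded *Hcrt* in 7 of 10. At the low end, *Oxt*, *Hcrt* and *Gnrh1* rested on 13.5, 12.2 and 8.99 reads per library on average, for which counting alone gives a coefficient of variation of 27.2%, 28.6% and 33.3%. For *Trh*, with 135 reads, counting gives 8.61%. The SD within groups on the log2 scale ran from 0.117 for *Trh* to 0.905 for *Hcrt*, against a median of 0.159 over all genes.

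*Avp* and *Oxt* encode vasopressin, which acts on water balance and vessels, and oxytocin, which acts in birth, milk release and social behaviour. They lie on chromosome 2 of GRCm38 on opposite strands, *Oxt* at chr2:130576173-130577054 (+) and *Avp* at chr2:130580620-130582554 (-), with 3565 bases between their 3′ ends, and each has 3 exons. Both precursors contain a neurophysin, the carrier with which the hormone is packed, and the 2 transcripts are identical over 127 bases that run from exon 1 into exon 2 in each gene (GENCODE M21). This stretch is shown because a read pair with both reads inside it cannot be assigned to either gene by sequence. Sequencing was paired-end, so a pair with 1 read outside it may still be assigned. The part of this stretch in the values was not tested. The stretch spans bases 144 to 270 of the *Avp* transcript and bases 156 to 282 of the *Oxt* transcript:
*Avp* and *Oxt*, shared stretch: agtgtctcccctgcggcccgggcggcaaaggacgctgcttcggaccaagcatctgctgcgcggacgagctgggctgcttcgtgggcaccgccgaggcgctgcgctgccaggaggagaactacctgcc

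Of the 31-base words of the *Avp* transcript, 17.7% also occur in *Oxt*, and 21.3% of the *Oxt* words occur in another gene. The transcripts of the other 7 measured neuropeptides share no 31-base word with another gene.

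*Avp* stood at 106, 77.2, 90.8, 133 and 119 normalised counts in HT 1 to HT 5 and at 108, 111, 71.9, 84.1 and 108 in WT 1 to WT 5. The groups were mixed, with 2 HT libraries above all WT libraries and the lowest value in WT 3. The means were 105 ± 22.1 (HT) and 96.6 ± 17.5 (WT; SD, n = 5 each), with a log2 difference of 0.12 ± 0.17 (SE, 95% interval -0.26 to 0.49, exact permutation p = 0.540). The difference was 0.028 without HT 4, 0.017 without WT 3 and 0.22 without HT 2.

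*Oxt* stood at 13.1, 8.95, 17.5, 23.0 and 15.99 normalised counts in HT 1 to HT 5 and at 13.0, 10.9, 6.42, 12.9 and 12.6 in WT 1 to WT 5. A total of 4 HT libraries were above the highest WT library, HT 1 by less than 1 read, and HT 2 lay within the WT range. The means of 15.7 ± 5.22 and 11.2 ± 2.78 (SD, n = 5 each) gave a log2 difference of 0.44 ± 0.30 (SE, 95% interval -0.22 to 1.09, exact permutation p = 0.151). The difference was 0.29 without HT 4 and 0.27 without WT 3.

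*Oxt* was also set against *Avp* in the same library, since both are made by magnocellular neurons of the same nuclei. *Oxt* came to 11.6% to 19.2% of the *Avp* level in HT (median 13.4%) and 8.94% to 15.3% in WT (median 11.7%). On the log2 scale the ratio was -2.70 ± 0.29 for HT and -3.02 ± 0.27 for WT (SD, n = 5 each), which is a difference of 0.32 (exact permutation p = 0.103, adjusted over 2 ratios 0.206). Leaving out each library in turn gave 0.22 to 0.42, with exact permutation p values from 0.0476 (without WT 4) to 0.206 before adjustment.

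The stretches just before the RefSeq start sites of *Avp* and *Oxt* (GRCm38.p6) are shown because the neighbouring genes hold the same 6 letters there. *Trh* and *Gal*, the genes with the smallest p values, are shown for comparison, as the 60 bases before each start. Capitals mark CATAAA, a variant of the TATA box:
*Avp*, chr2:130582589-130582648 (-): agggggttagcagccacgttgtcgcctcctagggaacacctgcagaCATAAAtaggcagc
*Oxt*, chr2:130576109-130576168 (+): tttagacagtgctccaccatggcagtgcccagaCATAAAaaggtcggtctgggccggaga
*Trh*, chr6:92244651-92244710 (-): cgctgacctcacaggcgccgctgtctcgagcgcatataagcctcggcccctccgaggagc
*Gal*, chr19:3414545-3414604 (-): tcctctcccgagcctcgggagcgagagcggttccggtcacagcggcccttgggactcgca

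Entries were found for 7 of the 10 genes, each with 250 bases before and 50 after the start, and were searched on both strands for TATAAA, for its variant CATAAA and for the cyclic AMP response element TGACGTCA, which were picked after the sequences had been seen. CATAAA began 14 bases before the start of *Avp* and 27 before that of *Oxt*, while TATAAA began 27 bases before the start of *Pmch* and 33 before that of *Hcrt*. *Cartpt* held TGACGTCA 112 bases before its start, and in *Gal* and *Pmch* CATAAA lay after the start, on the opposite strand in *Pmch*. The window of *Trh* held none of the 3, but the bases shown above include tataag, which differs from TATAAA in its last base and was not searched for. Over all 27025 RefSeq promoters of this length, 14.2% hold TATAAA, 12.1% CATAAA and 1.88% TGACGTCA. These matches are descriptions of letters and were not related to the expression values.

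*Trh*, *Crh* and *Gnrh1* encode hormones that are released towards the anterior pituitary: thyrotropin-releasing hormone, corticotropin-releasing hormone, which starts the stress axis, and gonadotropin-releasing hormone, which starts the reproductive axis. *Trh* (chr6:92242061-92244650, minus strand, 3 exons) had the tightest values and the smallest p of the neuropeptides. Its normalised counts were 150.3, 133, 149, 148 and 163 in HT 1 to HT 5 and 120.4, 121, 115, 108 and 138 in WT 1 to WT 5. Every HT library lay above the WT median, and the only overlap was between HT 2 and WT 5.

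The *Trh* means, 149 ± 10.5 for HT and 120.4 ± 11.2 for WT (SD, n = 5 each), had a ratio of 1.24. The log2 difference was 0.31 ± 0.10 (SE, 95% interval 0.084 to 0.53, limma p = 0.0107, exact permutation p = 0.0159), which did not pass adjustment over all genes. Leaving out each library in turn gave 0.27 to 0.36, and without HT 4 the difference was 0.31.

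*Crh* (chr3:19693401-19695396, minus strand, 2 exons) stood at 42.9, 65.0, 59.8, 72.2 and 65.2 normalised counts in HT 1 to HT 5 and at 52.2, 39.2, 66.1, 41.0 and 35.9 in WT 1 to WT 5. WT 3 was higher than every HT library but HT 4, and HT 1 lay in the middle of the WT libraries, so the groups overlapped widely. The means of 61.0 ± 11.1 and 46.9 ± 12.4 (SD, n = 5 each) gave a log2 difference of 0.39 ± 0.20 (SE, 95% interval -0.043 to 0.82, limma p = 0.0738, exact permutation p = 0.0952). The difference was 0.52 without WT 3 and 0.32 without HT 4.

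*Gnrh1* (chr14:67745181-67749439, plus strand) stood at 4.16, 10.1, 11.8, 12.6 and 7.15 normalised counts in HT 1 to HT 5 and at 3.57, 7.65, 11.7, 5.13 and 15.7 in WT 1 to WT 5. The groups covered the same range at these few reads, with means of 9.15 ± 3.48 and 8.75 ± 4.96 (SD, n = 5 each), and a difference was not detectable at this depth (log2 difference of 0.13, exact permutation p = 0.754).

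*Pmch* and *Hcrt* encode melanin-concentrating hormone, which favours feeding and sleep, and the orexins, which hold wakefulness, and are made by separate neurons of the lateral hypothalamus. *Pmch* (chr10:88091072-88092375, plus strand, 3 exons) stood at 132, 138, 138, 159 and 122 normalised counts in HT 1 to HT 5 and at 117, 171, 124, 134 and 89.2 in WT 1 to WT 5. WT held both the highest and the lowest library, and all HT libraries lay between them. The means were 138 ± 13.3 and 127 ± 29.6 (SD, n = 5 each), with a log2 difference of 0.14 ± 0.15 (SE, 95% interval -0.19 to 0.48, exact permutation p = 0.405). The difference was 0.027 without WT 5, 0.26 without WT 2 and 0.093 without HT 4. *Pmch* overlaps *Parpbp* on the opposite strand, and whether the quantification used strand is not stated in the sources used here.

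*Hcrt* (chr11:100761069-100762931, minus strand, 3 exons) was the most variable, at 2.20, 16.3, 12.1, 18.9 and 25.2 normalised counts in HT 1 to HT 5 and at 10.1, 5.97, 12.0, 11.3 and 5.59 in WT 1 to WT 5. HT held the lowest library, HT 1, while its other libraries lay above all WT libraries, HT 3 by less than 1 read. The means were 15.0 ± 8.58 and 9.001 ± 3.02 (SD, n = 5 each) with a log2 difference of 0.44 ± 0.51 (SE, 95% interval -0.65 to 1.54, exact permutation p = 0.476). The value rests on single libraries: it was 0.95 without HT 1 (adjusted p from 0.902 to 1.00 by limma over all alternatives), 0.19 without HT 5 and 0.29 without HT 4.

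Set against *Pmch* in the same library, *Hcrt* came to 1.66% to 20.6% in HT (median 11.8%) and 3.49% to 9.67% in WT (median 8.48%). The log2 ratio differed by 0.30 between the groups (exact permutation p = 0.619, adjusted over 2 ratios 0.619). It was 0.79 without HT 1 (exact permutation p = 0.0476, before adjustment), 0.20 without HT 4 and 0.0037 without HT 5.

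*Cartpt* encodes the CART peptides, which restrain feeding, and *Gal* encodes galanin, which inhibits many neurons and is made in several hypothalamic nuclei and in the locus coeruleus. *Gal* (chr19:3409915-3414544, minus strand) stood at 72.1, 86.9, 94.8, 128 and 76.7 normalised counts in HT 1 to HT 5 and at 59.4, 73.6, 62.2, 74.8 and 69.1 in WT 1 to WT 5. Every HT library lay above the WT median, HT 4 was far above the rest, and HT 1 fell within the WT range. The coefficient of variation was 24.0% in HT, 12.4% in HT without HT 4, and 10.1% in WT.

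The *Gal* means, 91.6 ± 22.0 for HT and 67.8 ± 6.83 for WT (SD, n = 5 each), had a ratio of 1.35, and the log2 difference was 0.40 ± 0.16 (SE, 95% interval 0.056 to 0.75, limma p = 0.0264, exact permutation p = 0.0238), which did not pass adjustment. Without HT 4 it was 0.28, and limma then missed an unadjusted level of 0.05, as it also did without HT 3, WT 1 or WT 3.

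*Cartpt* (chr13:99898489-99901091, minus strand, 3 exons) stood at 72.3, 66.5, 77.6, 105 and 66.7 normalised counts in HT 1 to HT 5 and at 81.8, 53.8, 64.4, 57.7 and 58.0 in WT 1 to WT 5. WT 1 lay above 4 of the HT libraries, and HT 4 was the highest of all. The means of 77.7 ± 16.05 and 63.2 ± 11.1 (SD, n = 5 each) gave a log2 difference of 0.29 ± 0.17 (SE, 95% interval -0.070 to 0.65, exact permutation p = 0.0952). It was 0.17 without HT 4 and 0.38 without WT 1.

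**Figure D2:**
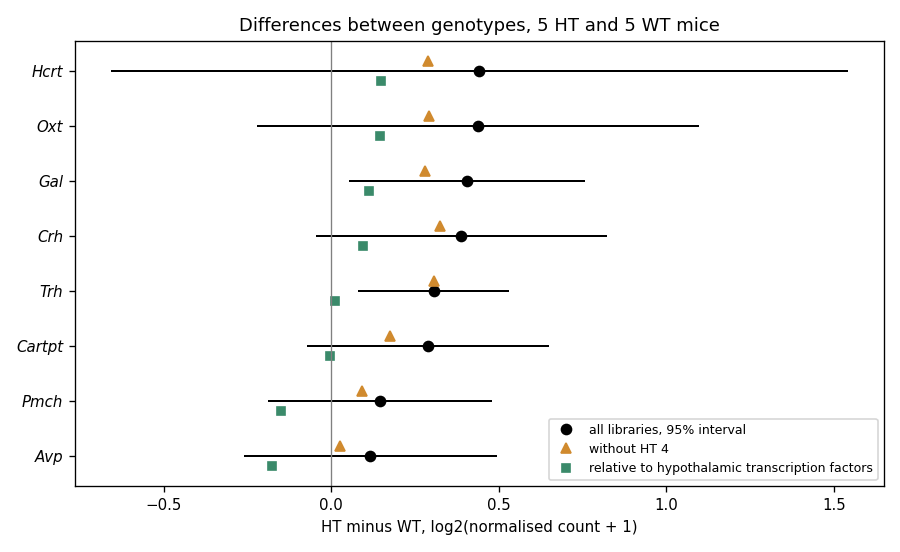
Difference between HT and WT on the log2(normalised count + 1) scale for the 8 tested neuropeptides, with 95% limma intervals (black), the value without HT 4 (triangles) and the value relative to the mean of 11 hypothalamic transcription factors of the same library (squares). All 8 values lie above 0 with and without HT 4, and the squares are the black points moved down by the same 0.29 for every gene.

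Without HT 4, all 8 tested genes still had a higher mean in HT, with a median log2 difference of 0.28, and the median over all genes was -0.00081. The neuropeptide transcripts are short, at 486 to 1384 bases against a median of 3271 over all genes tested, and HT 4 read high for short transcripts. With the trend of each library over length and GC content removed, the median was 0.32 and all 8 means stayed higher in HT. HT 4 and HT 5 had the highest values averaged over the 8 genes, at 0.53 and 0.28 above the gene means on the log2 scale, and HT 1, at -0.23, lay among the WT libraries, which ran from -0.26 to -0.041. The HT 1 average leans on *Hcrt*, at 2.20 normalised counts. HT 1 was the lowest library for that gene alone, so its average does not describe the other genes.

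To see how other transcripts of the same region compared, a list of hypothalamic transcription factors was read in the same fit. These factors set up and maintain hypothalamic cell types. Of 11 tested, 10 had a higher mean in HT and *Fezf1* a lower one, with a median log2 difference of 0.25, 3 at an unadjusted p under 0.05 and none past adjustment. Over all genes, 46.4% were higher in HT and 3.41% had an unadjusted p under 0.05 in either direction. Without HT 4 the median was 0.098, with 9 of 11 higher and 2 at an unadjusted p under 0.05. *Foxb1*, a factor of the mammillary region, differed by 0.40 ± 0.15 (SE, limma p = 0.0209, exact permutation p = 0.0556). *Nr5a1*, which defines the ventromedial nucleus, differed by 1.05 ± 0.44 (SE, limma p = 0.0348, exact permutation p = 0.0635) at a level of 15.4 ± 4.49 against 7.93 ± 5.00 normalised counts (SD, n = 5 each). *Lhx9*, which is also expressed in the thalamus and pretectum, differed by 0.13 ± 0.055 (SE, limma p = 0.0381, exact permutation p = 0.0238). *Otp* and *Sim1*, which specify the neurons that make *Avp*, *Oxt*, *Trh* and *Crh*, differed by 0.032 ± 0.12 and 0.32 ± 0.25 (SE, n = 5 against 5).

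The mean log2 value of the 11 transcription factors was 6.13 to 6.41 in the HT libraries and 5.81 to 6.10 in the WT libraries. Each factor had equal weight, those with few reads included. *Nr5a1* differed by 1.05 and *Hmx3*, at 13.2 (HT) and 8.83 (WT) normalised counts, by 0.70. The better measured *Nkx2-1* and *Otp* differed by 0.051 and 0.032, and *Fezf1* by -0.14. The mean over HT libraries was 0.29 above that over WT libraries. Expressing each neuropeptide relative to this mean in its own library therefore lowered every difference by the same 0.29 and left differences from -0.18 to 0.15, with a median of 0.013. *Trh* then differed by 0.013 (exact permutation p = 0.897) and *Gal* by 0.11 (exact permutation p = 0.429), and the smallest exact permutation p of the 9 genes was 0.246. The part that the amount of hypothalamic tissue plays in the values was not tested.

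**Figure D3:**
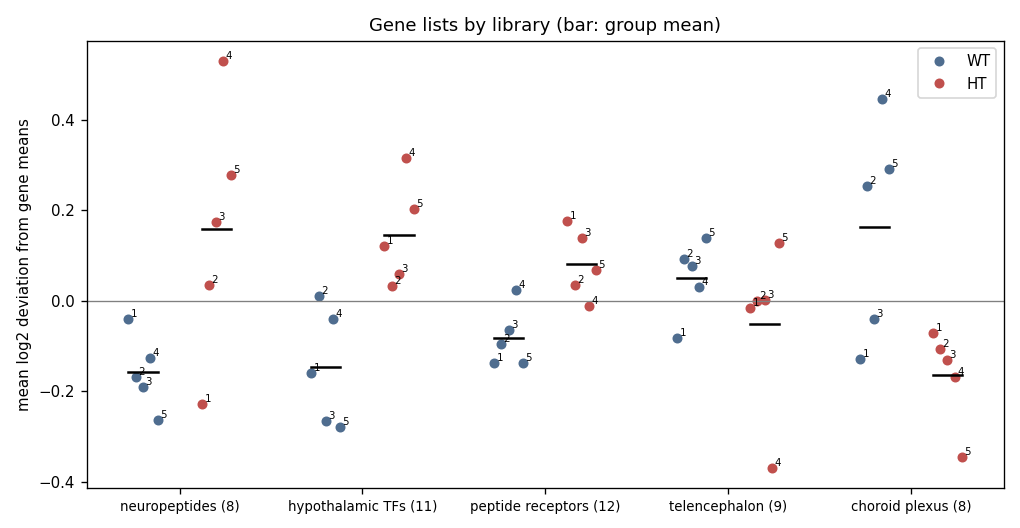
Mean log2 deviation from the gene means in each library (points, numbered by replicate; blue WT, red HT; bar, group mean) for 5 gene lists, with the number of genes in parentheses. The neuropeptides, hypothalamic transcription factors and peptide receptors have a higher mean in HT, the telencephalon and choroid plexus markers a lower one, and HT 4 is the highest library for the neuropeptides and the lowest for the telencephalon.

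Markers of neighbouring tissue were read in the same way. All 9 telencephalon markers had a lower mean in HT (median log2 difference of -0.12, none at an unadjusted p under 0.05). Their summed level was 14196 to 21507 normalised counts in HT and 18433 to 21658 in WT, lowest in HT 4. Without HT 4, 6 of 9 had a lower mean and 3 a higher one, with a median of -0.018, and the summed level averaged 20171 in HT against 20173 in WT. All 8 choroid plexus markers had a lower mean in HT (median -0.35). Of these, 3 had an unadjusted p under 0.05, where 3.41% of all genes did in either direction. The summed level of the choroid plexus markers was 7000 to 9938 in HT against 10553 to 14307 in WT with no marker at 0. Most of this sum was *Ttr*, with means of 8118 in HT and 11181 in WT. With equal weight per marker the groups overlapped, at mean log2 deviations of -0.34 to -0.072 in HT and -0.13 to 0.45 in WT. *Ttr*, the thyroid hormone carrier that choroid plexus secretes, was the only marker of the 8 that did not overlap between the groups. Across all genes, 0.629% did not overlap in either direction. The *Ttr* log2 difference was -0.46 ± 0.11 (SE, limma p = 0.00146, exact permutation p = 0.00794, adjusted p of 1.00 by limma). Of 8 cerebellum markers 6 had a lower mean in HT (median -0.12, and 8 of 8 with a median of -0.25 without HT 4), of 5 olfactory bulb markers 4 (median -0.058), and all 6 tested erythroid markers had a higher one (median 0.48). The groups overlapped widely in the summed erythroid level, at 5960 to 13733 normalised counts in HT and 4528 to 13889 in WT. Markers of 1 list are not independent of each other, since they were read in the same brains. None of the markers of these tissues passed adjustment, and their part in the neuropeptide values was not tested.

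The pituitary hangs from the hypothalamus and can come away with either tissue. The summed level of 4 pituitary markers was 5.95 to 52.3 normalised counts in HT and 5.20 to 1672 in WT, high in WT 2 and WT 5 alone, and *Gh*, *Cga* and *Tshb* were each listed at 0 in at least 1 library. *Pomc*, which pituitary cells share with arcuate neurons, reached 865 in WT 2 and 15.7 to 41.5 in HT, so its log2 difference of -0.75 ± 0.98 (SE, exact permutation p = 0.849) was not read as hypothalamic. WT 2 was also the highest library for *Pmch* and the highest WT library for *Avp*, and WT 5 the highest library for *Gnrh1* and the highest WT library for *Trh*. Without WT 2 or WT 5, all 8 tested neuropeptides still had a higher mean in HT, with medians of 0.32 and 0.30.

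A further 12 peptides of hypothalamic neurons were tested, most of which are also made widely outside the hypothalamus. Of these, 11 had a higher mean in HT and *Pomc* a lower one (median log2 difference of 0.13, and 0.079 without HT 4). *Tac1*, the precursor of substance P, had means of 667 ± 82.9 (HT) and 524 ± 44.0 (WT; SD, n = 5 each), with a log2 difference of 0.34 ± 0.092 (SE, limma p = 0.00252, exact permutation p = 0.0159). *Npy*, which arcuate neurons release together with the *Agrp* product, differed by 0.23 ± 0.082 (SE, limma p = 0.0146, exact permutation p = 0.0397), and *Sst*, somatostatin, by 0.20 ± 0.088 (SE, limma p = 0.0371, exact permutation p = 0.0635). Without HT 4 the *Sst* difference was 0.13 and missed an unadjusted level of 0.05 by limma. None of the 12 passed adjustment.

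Receptors for the neuropeptides were read next, as the receiving side of the same pathways. All 12 measured receptors had a higher mean in HT, with a median log2 difference of 0.17, and 1 of 12 had an unadjusted p under 0.05, where 3.41% of all genes did. The oxytocin receptor gene *Oxtr* stood at 313 ± 30.99 normalised counts in HT (285 to 366) and 263 ± 11.9 in WT (248 to 280; SD, n = 5 each). Its lowest HT library was above its highest WT library, as was true in either direction of 0.629% of all genes. The log2 difference was 0.25 ± 0.083 (SE, limma p = 0.0104, exact permutation p = 0.00794) and did not pass adjustment over all genes. Leaving out each library in turn gave 0.19 to 0.28, and without HT 4 it was 0.28.

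The vasopressin receptor *Avpr1a* was at 133 ± 19.6 (HT) and 116 ± 12.3 (WT), the orexin receptors *Hcrtr1* at 204 ± 31.4 and 173 ± 13.8 and *Hcrtr2* at 143 ± 21.3 and 133 ± 18.97, and the galanin receptor *Galr1* at 53.7 ± 10.8 and 43.3 ± 7.93 (SD, n = 5 each). The stress hormone receptors *Crhr1* and *Crhr2* differed by 0.061 ± 0.059 and 0.28 ± 0.21 on the log2 scale, the thyrotropin-releasing hormone receptors *Trhr* and *Trhr2* by 0.15 ± 0.13 and 0.021 ± 0.32, the melanin-concentrating hormone receptor *Mchr1* by 0.070 ± 0.11, and the melanocortin receptors *Mc3r* and *Mc4r*, on which the *Agrp* product acts, by 0.24 ± 0.26 and 0.091 ± 0.11 (SE). In all 11 receptors other than *Oxtr* the groups overlapped.

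The enzymes and granins of the secretory pathway, through which each of these precursors passes, had a median closer to that of all genes. Of 15 genes tested, 10 had a higher and 5 a lower mean in HT (median log2 difference of 0.047, and 0.013 without HT 4). The processing enzymes *Pcsk1*, *Pcsk2* and *Cpe*, which cut and trim the precursors, differed by 0.00036 ± 0.10, 0.073 ± 0.053 and 0.040 ± 0.073 (SE). *Cpe* ranged from 23939 to 31834 normalised counts in HT and from 24002 to 27423 in WT. Its difference without HT 4 is not given. *Scg2*, a granin of dense-core vesicles, differed by 0.17 ± 0.059 (SE, limma p = 0.0152, exact permutation p = 0.0159), and *Vgf* and *Chgb*, which are also stored in these vesicles, by 0.15 ± 0.083 and 0.086 ± 0.063 (SE). *Scg2* was the gene of this list with the smallest p, and none passed adjustment.

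Across the 10 mice, the neuropeptides were compared with each other in 36 pairs, on the log2 scale. Pearson's r was positive in 31 of 36 pairs, from -0.12 to 0.76 with a median of 0.30, and no pair passed adjustment over the 36 (smallest adjusted permutation p of 0.166 for Pearson's r, 4 pairs at an unadjusted p under 0.05, and 5 for Spearman's rho). *Crh* and *Hcrt* had r = 0.76 (permutation p = 0.00788, adjusted 0.166) and rho = 0.81 (permutation p = 0.00732, adjusted 0.264), and r = 0.71 without the 2 libraries farthest from the *Crh* median. *Avp* and *Oxt*, which share sequence as shown above, had r = 0.76 (permutation p = 0.00925, adjusted 0.166) and rho = 0.59 (permutation p = 0.0802, adjusted 0.416), and r = 0.41 without WT 3 and HT 2.

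*Pmch* and *Hcrt*, of neighbouring neurons, had r = 0.15. Without HT 4, r was positive in 23 of 36 pairs, and with each genotype's own mean subtracted it was positive in 24 of 36. With the length and GC trend of each library removed, r was positive in 25 of 36. What the number of positive pairs rests on was not tested. Each neuropeptide was also compared with the transcription factor mean. *Gal* had the highest r, 0.76 (permutation p = 0.00806, adjusted over 9 relations 0.0725) with rho = 0.76 (permutation p = 0.0155, adjusted 0.0807), and r = 0.65 without HT 4 and HT 3.

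**Figure D4:**
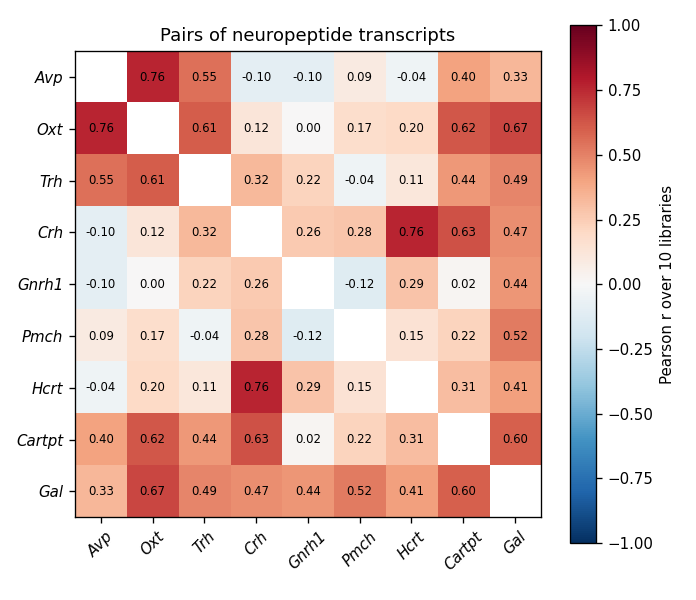
Pearson's r between the log2(normalised count + 1) values of each pair of the 9 neuropeptides over the 10 libraries, with the colour scale from -1 to 1. The highest values are those of *Crh* with *Hcrt* and of *Avp* with *Oxt*, both 0.76, and no pair passed adjustment over the 36 pairs.

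For each tested neuropeptide, the 3 genes with the most similar values over the 10 libraries were sought among 14044 genes with a mean of at least 50, by Pearson's r on the log2 scale. These are the highest of many values and are given as descriptions. *Trh* was most like *Cpne8* (0.92), *Hmgcll1* (0.90) and *Crip3* (0.89), and *Gal* most like *Scg2* (0.93), *Prps1* (0.93) and *Zcchc12* (0.93), which dropped to 0.83, 0.85 and 0.81 without HT 4. *Avp* was most like *Fgd5* (0.93), *Rtca* (0.93) and *Mettl23* (0.91), and *Oxt* most like *Pick1* (0.94), *Mrpl14* (0.92) and *Cystm1* (0.91). *Crh* was most like *Syt17* (0.91), *Slc35f3* (0.91) and *Spice1* (0.90), and *Pmch* most like *Wipf1* (0.94), *Flywch1* (0.93) and *Emilin1* (0.92). *Hcrt* was most like *Penk* (0.92), the enkephalin precursor, *Sv2a* (0.89) and *Agpat1* (0.89), and *Cartpt* most like *Net1* (0.93), *Gm20501* (0.91) and *Alkbh4* (0.91), which dropped to 0.84, 0.82 and 0.82 without HT 4. No other neuropeptide of the list was among these genes.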

How the data were processed

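Whole-brain mRNA of 10 male mice was analysed, 5 HT and 5 WT, with groups and replicate numbers taken from the sample labels. The authors quantified reads with Salmon 1.1.0 on GRCm38 with GC bias correction, imported gene-level estimates with tximport and divided them by DESeq2 1.30.1 size factors, with R 4.1.1 per the labels. The deposited signal is thus a normalised read count. Whole reads were not recovered from it, since Salmon divides reads between transcripts, and count models were not used. The release of the annotation and any filter for low expression are not given in the sources used here, and the smallest mean was 3.44. Of 18444 genes, 18431 matched GENCODE M21, the source of symbols, positions and lengths.

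Values were analysed as log2(value + 1), a scale that understates changes of low genes, in R 4.3.3 with limma 3.58.1 (trend, robust, no covariate, two-sided, Benjamini-Hochberg over 17020 genes with a mean of at least 10, with 1424 left out). Single values were tested by a two-sided exact permutation test over 252 assignments, with a smallest p of 0.00794, and correlations with 100000 permutations (Python 3.11.15, scipy 1.17.1, numpy 2.4.6). The limma and correlation steps were tested on simulated data. Leaving out libraries, other pseudocounts, minimum means and scalings, library weights and a replicate block were tried. Intervals of differences come from the spread between mice. The neuropeptides, the gene lists and the tests were chosen with earlier results of these data known. Named genes are every neuropeptide, *Arid1b*, every receptor, up to 3 genes with the smallest p in each list, and the 3 most similar genes per neuropeptide. Other genes named (*Fezf1*, *Pomc*, *Nkx2-1*, *Otp*, *Sim1*, *Hmx3*, *Pcsk1*, *Pcsk2*, *Cpe* and the pituitary markers) were chosen after their values were seen. Sequences are from RefSeq promoters (GRCm38.p6) and GENCODE M21 transcripts. The ratio of *Agrp* to *Pomc* was planned and not run, because *Agrp* was not analysed here.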

Additional observations from a re-analysis of the deposited data

Results flagged for a closer look

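Among the 14 genes and ratios looked at, each with an HT and a WT group, 2 of 28 groups held a library farther from the rest than Dixon's limit for 5 samples allows (0.71), where chance gives about 1.4. Both were HT groups and in both the library was HT 4. For *Cartpt*, HT 4 was the highest, and its gap to the next library was 0.714 of the range of the group. For *Arid1b*, HT 4 was the lowest, with a gap of 0.735 of the range. Without HT 4, the *Cartpt* log2 difference was 0.17 instead of 0.29. HT 4 was also the highest library for *Avp*, *Oxt*, *Crh* and *Gal*, none of which passed the limit.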

How the results depend on the processing

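No neuropeptide passed the adjusted threshold under any of 19 alternatives, and each tested one had a higher mean in HT under all of them: 8 of 8 when each library was left out in turn, 9 of 9 with no minimum mean and 6 of 6 with a minimum mean of 50. Reading relative to the transcription factors lowers every gene by the same 0.29, so the genes with a smaller difference fell below 0 by construction (*Avp* -0.18, *Pmch* -0.15, *Gnrh1* -0.16, *Cartpt* -0.0045), which says nothing of the single genes. List medians without HT 4 were computed after seeing the data. The number of genes called over the whole table was 0, and became 1 with the length and GC trend of each library removed, 2 with library weights, 0 to 2 when libraries were left out (2 without HT 4) and 2 with the trend removed and HT 4 left out, an alternative chosen after seeing the data. *Arid1b* itself was among the genes called in each of these. Its limma adjusted p was 0.390 in the main fit and 6.61e-07 with the trend removed. It was 0.000687 with library weights and 0.000252 without HT 4. The number of genes at an unadjusted p under 0.05 was 580, and 447 to 1429 when libraries were left out (1429 without HT 4). HT 4 received a weight of 0.171 against 0.858 to 1.52 in the others. The difference in the *Oxt* to *Avp* log2 ratio was 0.22 to 0.42 and that of *Hcrt* to *Pmch* 0.0037 to 0.79 when libraries were left out. The causes were not tested. Deviations of HT and WT samples of the same number had low correlations, from -0.10 to 0.093. Even so, 4 of 5 HT libraries correlated best with the WT library of their own number. Whether the numbers stand for a shared litter or batch was not tested. With a replicate block, 0 genes passed adjustment, 558 had an unadjusted p under 0.05 and 8 of 8 neuropeptides were higher in HT, and the ratio differences were 0.32 and 0.30. Depth limits *Oxt*, *Hcrt* and *Gnrh1*, at 8.99 to 13.5 reads per library.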
